A study of Gallus gallus with 205 samples.

Results

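The genes described here are a list of 57 genes given as Z-linked in the chicken, compared between male and female cells of embryos at gastrulation. Of the 57, 53 had a row in both count tables used here and reached the minimum level of 5 CPM pooled over all cells (CPM is a gene's counts scaled to a total of 1000000), out of 9076 genes at that level and 20581 genes compared. The other 4, SMAD4, NIPBL, IPO11 and ME2, were not found under these names and were not analysed. The study counted transcripts in single cells of White Leghorn embryos at Hamburger-Hamilton stage 4. Of these, 175 cells came from the dissected primitive streak, in the title series cPS (27 cells), cPS1 (37), cPS2 (59) and cPS3 (52), and 30 came from the rest of the area pellucida, the surrounding region, in the series cSR. The labels give 6 cells of the surrounding region as epiblast. The embryos are described with no treatment or mutation, and the labels name neither embryo nor sex.

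In birds the male is ZZ and the female ZW, so a female cell carries a single copy of most Z genes, whereas a male cell carries a pair. Birds have no counterpart of the X inactivation of mammals that silences a whole chromosome, and dosage compensation in the chicken is known to be partial and to differ from gene to gene. A few Z genes keep a related copy, or gametolog, on the small W chromosome. The listed genes serve in many processes, among them SMAD signalling, chromatin, DNA repair, the spindle, protein breakdown, ribosome making and mitochondrial metabolism.

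Cells were divided by the level of HINTW, a W-linked gene transcribed in female birds. A cell with HINTW under 100 CPM is called male and a cell at 700 CPM or more female, and the 17 cells in between were left out. The cells in between ran from 110.1 to 628 CPM. The sexes below are the ones HINTW gives, so the level of HINTW is no result. HINTW had a median of 1.64 CPM and a highest value of 92.5 CPM in male cells, and a lowest value of 735 CPM and a median of 1254 CPM in female cells. Male and female cells numbered 12 and 13 in cPS, 18 and 10 in cPS1, 48 and 9 in cPS2, 37 and 11 in cPS3, and 11 and 19 in cSR, the 62 female cells being fewer than the male cells in 3 of the 5 series. Pooled ratios therefore weigh the series differently in each sex. The labels tie no cell to an embryo, so several cells of a group may share an embryo and each sex is 1 sample. No test between the sexes was therefore possible, and the values below are descriptions of these cells.

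A second W-linked gene, SPINW, separated the same cells less fully. It stood at 1.89 CPM pooled over male cells and at 243 CPM over female cells. It reached 10 CPM in 2 male cells and in 46 of the 62 female cells. Depth was a median of 2505559 expected counts for male cells (201170 to 4552697) and 2665407 for female cells (456681 to 3993059). The streak marker T was detected at 10 CPM or more in 98.4% of male and 98.4% of female cells. The summed level of 6 streak markers had medians of 2797 CPM (59.4 to 9869) in male and 2794 CPM (29.03 to 11297) in female cells. Some markers of other cell types, many of them low, were less even. Of the node markers CHRD, a secreted BMP antagonist, stood at 26.4 CPM in male and 8.23 CPM in female cells, whereas LHX1, a homeobox factor, stood at 7.61 CPM in male and 12.01 CPM in female cells. The vessel marker CDH5 stood at 0.0911 CPM in male and 20.9 CPM in female cells. The blood factor LMO2 stood at 4.27 CPM in male and 11.7 CPM in female cells. Within cPS1, cPS2 and cPS3 LMO2 was higher in male cells. KDR, the highest blood and vessel marker, was nearer to even (98.4 CPM in male and 107.2 CPM in female cells). HHEX of the endoderm stood at 7.46 CPM in male and 23.3 CPM in female cells, and APOA1 was also higher in female cells. The other endoderm markers, with RBP4 and CER1 on Z among them, were higher in male cells. The summed level of 6 endoderm and hypoblast markers had medians of 32.6 CPM in male and 12.9 CPM in female cells. UPK1B of the non-neural ectoderm stood at 12.5 CPM in male and 31.2 CPM in female cells, with GRHL3 nearly equal (11.1 and 10.6 CPM). The stress-induced gene FOS stood at 4.15 CPM in male and 15.7 CPM in female cells. This difference lay mainly in the series cPS, and FOS was closer to equal in the other series. Whether such differences in the mix or state of the cells take part in the ratios below was not tested.

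Most listed genes were higher in male than in female cells, by less than the factor of 2 that separates the copy numbers. The ratio of pooled CPM, as log2(male CPM + 1) − log2(female CPM + 1), had a median of 0.67 over the 53 genes, a fold of 1.59. It was above 0 for 48 of the 53 genes (90.6%), against 52.6% of all 9076 genes. At least 1.5-fold higher in male cells were 30 genes (56.6%), against 13.3% of all genes. At least 1.5-fold lower were 2 genes, UBAP2 and PLK2 (3.77%), against 8.09% of all genes. At least 2-fold higher were 7 genes (13.2%), against 5.19% of all genes and 24.8% of the other genes on Z. These 7 were ATG10, CREB3, SMARCA2, OXCT1, PPWD1, JAK2 and RAD1. Between 0 and 1.5-fold lay 18 genes, and at or below 0 lay 5, UBAP2, PLK2, GHR, SLC1A3 and NFX1.

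**Figure D1:**
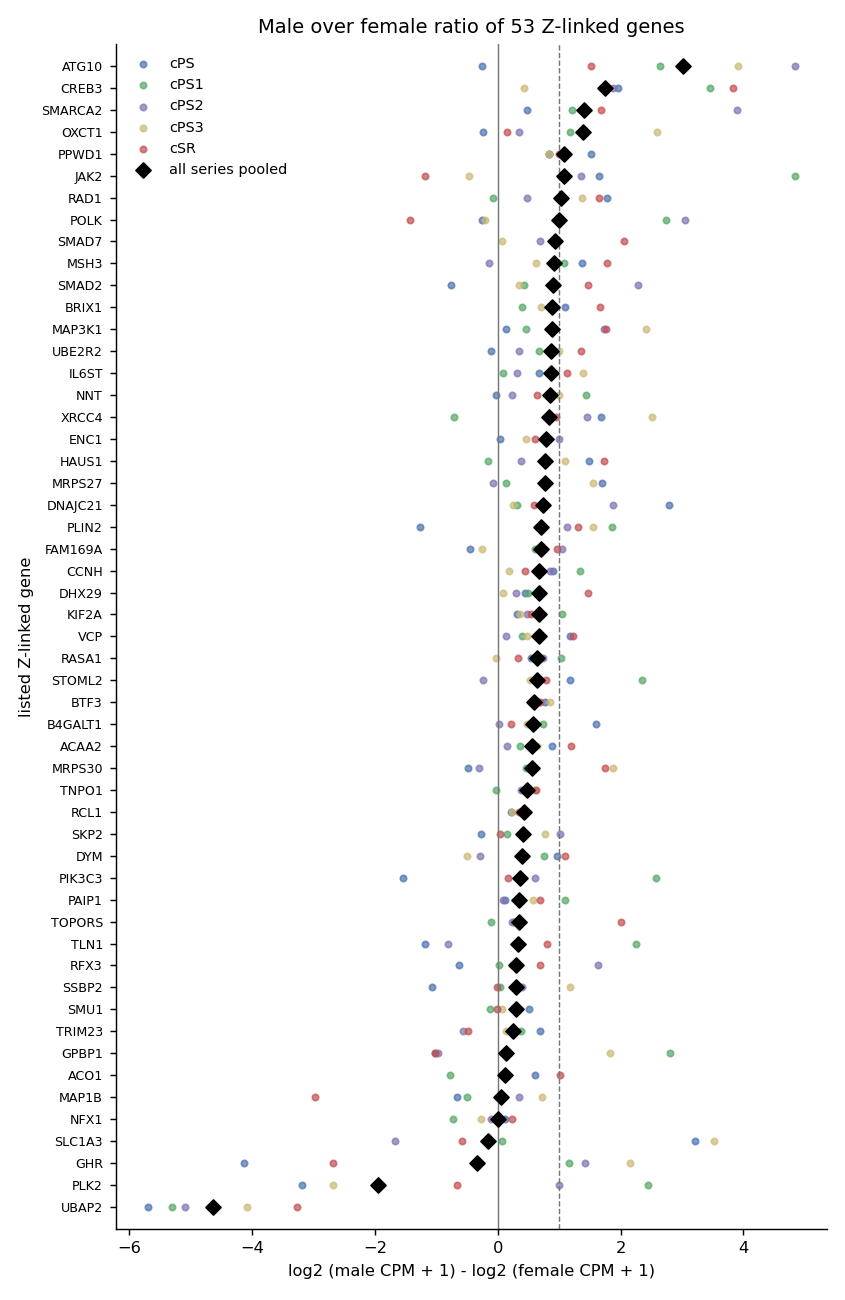
Male over female log2 ratio of each of the 53 listed genes (rows, sorted), pooled over all series (black diamonds) and within each title series (coloured points); the solid line marks equal levels and the dashed line a 2-fold ratio. Most diamonds lie between the lines, and the points of a single gene are often spread more widely than the diamonds of different genes.

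The same comparison over other genes of the series gave a centre at 0 for autosomes and a shift of like size for the rest of Z. A reference table of gene names placed 7616 genes at the minimum level on numbered autosomes and 391 unlisted genes on Z. The autosomal genes had a median log2 ratio of 0.01, with 10.9% at least 1.5-fold higher in male cells and 7.59% at least 1.5-fold lower. The 391 other Z genes had a median of 0.64, with 54.5% at least 1.5-fold higher and 2.30% at least 1.5-fold lower. Over the 24 autosomes with at least 100 genes, the medians ran from -0.05 on chromosome 27 to 0.11 on chromosome 12. The 10th and 90th percentiles were 0.07 and 1.06 for the listed genes, -0.04 and 1.35 for the other Z genes, and -0.50 and 0.62 for the autosomal genes.

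**Figure D2:**
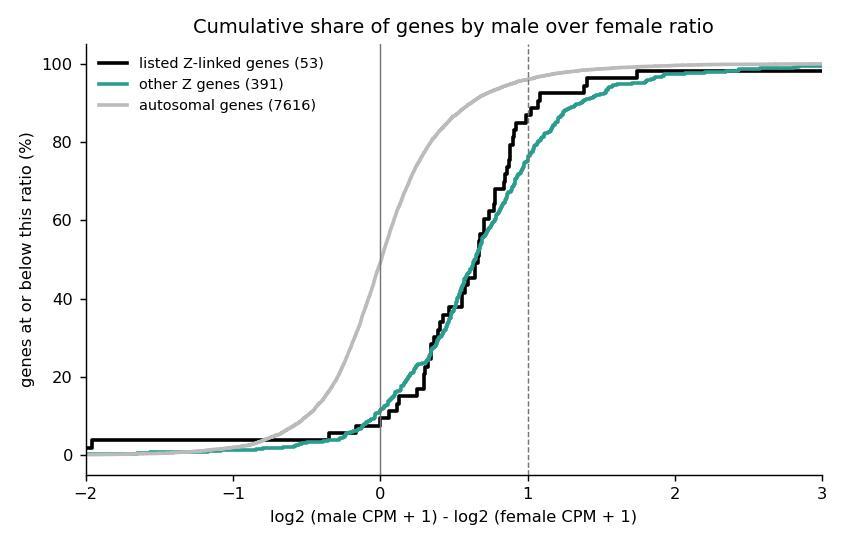
Cumulative percentage of genes (vertical axis) at or below each male over female log2 ratio (horizontal axis, cut at -2 and 3) for the 53 listed genes, the 391 other Z genes and the 7616 autosomal genes. The curves of both sets of Z genes cross 50% near 0.65, and the autosomal curve crosses it near 0.01.

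Set against genes of the same level, few well expressed autosomal genes passed 1.5-fold, while most Z genes at 200 CPM or more did. At 200 CPM or more, the 13 listed genes had a median of 0.64 and 8 of them were at least 1.5-fold higher in male cells, as were 67.3% of the 55 other Z genes and 0.916% of the 983 autosomal genes. From 100 to 200 CPM the 11 listed genes had a median of 0.77 with 7 at least 1.5-fold higher, against 48% of 50 other Z genes and 1.70% of 1058 autosomal genes. Autosomal genes at these levels lay close to 0, with 10th and 90th percentiles of -0.24 and 0.22 in the upper class and -0.30 and 0.33 in the lower. In the lowest class, from 5 to 20 CPM, 20.9% of 2330 autosomal genes also passed 1.5-fold, and 4 of the 6 listed genes did, with a median of 1.03 against 0.06 for the autosomal genes. The class from 20 to 50 CPM held 13 listed genes with a median of 0.64. Of these, 7 passed 1.5-fold, against 52.6% of other Z genes and 12.8% of autosomal genes. From 50 to 100 CPM there were 10 listed genes with a median of 0.36. Of these, 4 passed 1.5-fold, against 51.9% of other Z genes and 5.76% of autosomal genes.

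The spread of single genes also differed with level. All 24 listed genes at 100 CPM or more had a log2 ratio above 0, from 0.06 (MAP1B) to 1.08 (PPWD1), and PPWD1 was the only 1 of them at 2-fold. Within series, 11 of the 24 were above 0 in all 5, and others were below 0 in at least 1, such as PLIN2 (-1.27 in cPS), SSBP2 (-1.07 in cPS) and ACO1 (-0.77 in cPS1). The 29 listed genes under 100 CPM ranged from -4.63 (UBAP2) to 3.02 (ATG10). Across the 53 genes the ratio itself had almost no relation to level, with a Spearman rho of -0.08, given as a description because the genes share their cells. For 8 genes the highest female cell gave at least 25% of the female counts, namely CREB3 (52.7%), PLK2, PLIN2, GHR, POLK, XRCC4, MSH3 and SLC1A3, and for GHR and JAK2 the highest male cell did so in the male counts. Exact Poisson intervals at 95% are given below for some pooled levels. They cover counting error only and are far narrower than the spread between cells.

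Within each title series the listed genes also centred above 0. Their median log2 ratio was 0.45 in cPS, 0.61 in cPS1, 0.39 in cPS2, 0.52 in cPS3 and 0.69 in cSR. Autosomal medians in the same series were -0.02, 0.06, 0.12, 0.05 and -0.06. Listed genes above 0 numbered 34 of 53 in cPS against 49.7% of all genes, 43 in cPS1 against 54.5%, 42 in cPS2 against 57.4%, 45 in cPS3 against 54.7% and 42 in cSR against 47.7%. In every series the median of the 391 other Z genes was higher than that of the listed genes, between 0.62 and 0.80, though both medians were alike when all cells were pooled. That difference between the sets was not tested.

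The ratio was above 0 in all 5 series for 18 listed genes (33.96%), against 5.18% of all genes and 3.77% of autosomal genes. They were SMAD7, IL6ST, MAP3K1, BTF3, CCNH, SMARCA2, CREB3, KIF2A, ENC1, VCP, PAIP1, RCL1, DHX29, DNAJC21, BRIX1, PPWD1, ACAA2 and B4GALT1. It was above 0 in 4 series for 19 genes, in 3 for 10, in 2 for 5 and in 0 for UBAP2.

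Summed over the list, each cell could be set beside the others. The 53 genes together had a median of 8328 CPM per male cell (5099 to 12505) and 5722 CPM per female cell (3583 to 10298), a ratio of medians of 1.46. The ranges overlapped, and in cSR, where they overlapped least, 1 male cell lay at or below the highest female cell and 3 female cells at or above the lowest male cell. Within series the ratio of medians was 1.39 in cPS, 1.32 in cPS1, 1.47 in cPS2, 1.48 in cPS3 and 1.49 in cSR. TNPO1 gave 11.8% and MAP1B 10.5% of the counts of the list. Without both, the medians were 6731 CPM in male and 4489 CPM in female cells.

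Over all 442 Z genes at the minimum level, listed ones included, nearly every cell lay on the side of its HINTW level. They held a median of 5.62% of a male cell's counts (4.48 to 6.71%) and 3.5997% of a female cell's (2.50 to 4.82%), a ratio of 1.56. Only 3 male cells lay at or below the highest female cell and 3 female cells at or above the lowest male cell. In cPS1, cPS2, cPS3 and cSR the male and female cells did not overlap at all, the narrowest gap being that of cPS3, with a lowest male cell at 4.59% and a highest female cell at 4.58%. In cPS 1 male and 1 female cell overlapped. The 17 cells between the HINTW limits had a median of 4.98% (4.36 to 6.10%). Of these, 9 were in cPS1, 4 in cPS3, 2 in cPS, 2 in cPS2 and 0 in cSR.

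**Figure D3:**
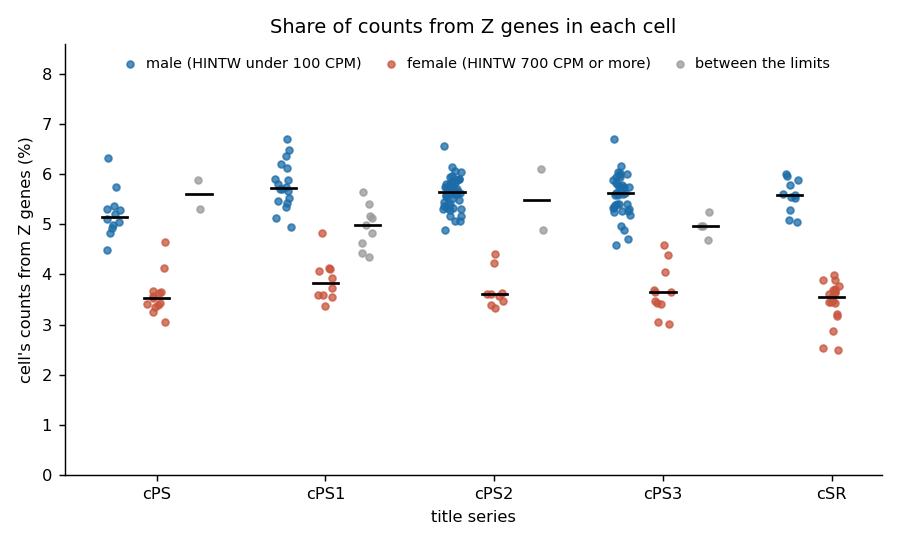
Percentage of each cell's counts that came from the 442 Z genes (vertical axis) by title series (horizontal axis), for male cells, female cells and cells between the HINTW limits; each point is a cell and bars are medians. Male cells sit between 4.48 and 6.71%, female cells between 2.50 and 4.82%, and the cells left out between 4.36 and 6.10%.

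Of the 8 signalling genes found, 6 were at least 1.5-fold higher in male cells and PLK2 was lower, with a group median of 0.87. Beside this count and those of the role groups below stand 13.3% of all genes and 54.5% of the other Z genes. SMAD2, which carries Nodal and activin signals to the nucleus, had a median of 110.4 CPM per male cell (0 to 873) and 35.2 CPM per female cell (0 to 318). Its pooled levels were 158.2 CPM (156.8 to 159.6) in male and 84.2 CPM (82.7 to 85.6) in female cells, a log2 ratio of 0.90. The sign was not the same in every series, at -0.76 in cPS, 0.42 in cPS1, 2.29 in cPS2, 0.34 in cPS3 and 1.47 in cSR. SMAD7, the inhibitory SMAD that blocks these receptors, had a median of 89.2 CPM per male cell (0 to 1495) and 20.5 CPM per female cell (0 to 568.2). Pooled it stood at 175 CPM (173 to 176) in male and 91.7 CPM (90.3 to 93.2) in female cells, a log2 ratio of 0.92, with 0.06 in cPS3 and 2.05 in cSR as its lowest and highest series.

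Among receptors and kinases, IL6ST, the signal-transducing receptor chain of the interleukin-6 family, was detected in 41.3% of male and 37.1% of female cells. Its median was 3.36 CPM per male cell (0 to 344) and 2.42 CPM per female cell (0 to 161.97), and its pooled log2 ratio was 0.86. JAK2, a kinase bound to cytokine receptors, had a median of 0 in both sexes, with a highest cell of 407 CPM among male and 112.5 CPM among female cells. Its ratio of 1.07 is the ratio of a few cells, and it ran from -1.19 in cSR to 4.84 in cPS1. The kinase MAP3K1 had a ratio of 0.88, and RASA1, which turns off RAS, had 0.64, near the median of the list. At low levels, GHR, the growth hormone receptor (5.59 CPM in male and 7.37 CPM in female cells, pooled), and PLK2, a polo-like kinase (2.03 CPM in male and 10.8 CPM in female cells), changed sign between series, and the highest female cell gave 47.4% of the female counts of PLK2.

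In the group of transcription and chromatin genes, 4 of 8 were at least 1.5-fold higher in male cells and 0 lower, with a median of 0.45. BTF3, a subunit of the complex that escorts nascent proteins at the ribosome, was detected in every male and every female cell. It had a median of 357 CPM per male cell (106.1 to 754) and 230 CPM per female cell (91.1 to 497). Although the cells overlapped, its log2 ratio varied little between series, from 0.61 in cPS2 to 0.85 in cPS3. The pooled ratio of 0.60 lay just below every series value, and the mean of the series was 0.71. SMARCA2, an ATPase of the SWI/SNF chromatin remodellers, was sparse, with a median of 0.389 CPM per male cell (0 to 381) and 0 per female cell (0 to 80.0). It was detected in 31.7% of male and 17.7% of female cells and had a log2 ratio of 1.40 pooled, above 0 in 5 of 5 series. CCNH, the cyclin of the CDK-activating kinase, had a ratio of 0.68, and RFX3 (0.30), SSBP2 (0.30) and GPBP1 (0.13) were nearer to equal levels when pooled. GPBP1 differed widely between series, at -1.02 in cPS, 2.80 in cPS1, -0.97 in cPS2, 1.83 in cPS3 and -1.02 in cSR. RFX3 and SSBP2 also changed sign between series.

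All 4 DNA repair genes found were at least 1.5-fold higher in male cells, from 0.84 to 1.02, though none was above 0 in every series. The same fold was passed by 13.3% of all genes and 54.5% of the other Z genes. POLK was low, at 6.44 CPM in male and 2.74 CPM in female cells pooled, and was above 0 in only 2 series. RAD1, part of the clamp that marks damaged DNA, had a median of 82.9 CPM per male cell (0 to 395) and 10.2 CPM per female cell (0 to 449). It was detected in 84.9% of male (77.5 to 90.7%, exact binomial interval) and 51.6% of female cells (38.6 to 64.5%). These intervals take cells as separate draws, although cells may share an embryo, so they do not compare the sexes. Pooled, it stood at 96.6 CPM in male and 47.0 CPM in female cells, a log2 ratio of 1.02, with -0.08 in cPS1 and 1.78 in cPS as its lowest and highest series. The mismatch repair gene MSH3 (0.91), the end-joining factor XRCC4 (0.84) and the translesion polymerase POLK (0.99) each took over 25% of their female counts from a single cell.

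Cytoskeleton and spindle genes had a median of 0.67, with 3 of 5 at least 1.5-fold higher in male cells. KIF2A, a kinesin that takes microtubules apart, had a median of 222 CPM per male cell (2.81 to 931) and 138.6 CPM per female cell (0 to 539), a pooled ratio of 0.67 and series values from 0.32 in cPS to 1.04 in cPS1. HAUS1, of the augmin complex that nucleates spindle microtubules, had 0.78 and ENC1, an actin-binding protein, 0.78. TLN1, which links integrins to actin, had a median of 6.55 CPM per male cell (0 to 141.9) and 5.91 CPM per female cell (0 to 125.96), and its ratio of 0.33 changed sign between series. MAP1B, a microtubule-associated protein, was the closest to equal of the well expressed genes, with a median of 646 CPM per male cell (0 to 5091) and 630.5 CPM per female cell (17.6 to 2777). Its ratio was 0.06 pooled but -2.98 in cSR, -0.67 in cPS, -0.50 in cPS1, 0.34 in cPS2 and 0.72 in cPS3. Its pooled sign also changed with the processing, over a range of -0.62 to 0.57. It was detected in 92.1% of male and 100% of female cells.

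Of the 8 genes of the ubiquitin and autophagy group, 3 were at least 1.5-fold higher in male cells and UBAP2 lower, with a median of 0.39. VCP, the ATPase that pulls ubiquitin-tagged proteins out of complexes, had a median of 298 CPM per male cell (9.99 to 1079) and 168 CPM per female cell (9.39 to 745), and its ratio of 0.67 was above 0 in every series (0.13 to 1.22). UBE2R2, a ubiquitin-conjugating enzyme, had a median of 44.4 CPM per male cell (0 to 333) and 19.2 CPM per female cell (0 to 282), with a ratio of 0.87 and -0.12 in cPS. ATG10, an enzyme of autophagosome formation, had the highest ratio of the list, 3.02. It stood at 52.5 CPM (51.7 to 53.3) in male and 5.58 CPM (5.22 to 5.96) in female cells and was detected in 34.9% and 14.5% of them, with -0.26 in cPS and 4.84 in cPS2. The ubiquitin ligase subunit SKP2 (0.41), the lipid kinase PIK3C3 (0.37), TOPORS (0.34) and TRIM23 (0.25) lay between equal levels and 1.5-fold.

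Genes of RNA processing, ribosome making and translation had the highest share of members above 0 in every series. Of 7 genes, 4 were at least 1.5-fold higher in male cells, all 7 were above 0, and 6 were above 0 in every series, with a group median of 0.67. Above 0 in every series were 5.18% of all genes and 30.9% of the other Z genes. Of the 24 listed genes at 100 CPM or more, 11 were so, BRIX1, RCL1, DHX29 and PPWD1 among them. Whether level takes part in this share was not tested. PPWD1, a spliceosome-associated isomerase, had a median of 220.1 CPM per male cell (0 to 911) and 83.65 CPM per female cell (0 to 591), a pooled ratio of 1.08 and series values from 0.83 in cPS1 to 1.51 in cPS. BRIX1, needed for the large ribosomal subunit, had a median of 328 CPM per male cell (76.4 to 1141) and 184 CPM per female cell (4.30 to 539), with a ratio of 0.88. DNAJC21 (0.74), the helicase DHX29 (0.67), RCL1 (0.43) and the poly(A)-binding protein partner PAIP1 (0.35) followed. SMU1, a splicing factor at 436 CPM in male and 355 CPM in female cells, had 0.30 pooled and values near 0 in cSR (-0.02), cPS1 (-0.12) and cPS3 (0.07).

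Among 7 mitochondrial and metabolic genes, 4 were at least 1.5-fold higher in male cells and all were above 0, with a median of 0.64. ACAA2, a thiolase of fatty acid oxidation, had a median of 261 CPM per male cell (3.09 to 761) and 165.4 CPM per female cell (3.52 to 756), with a ratio of 0.55 that was above 0 in every series (0.15 to 1.20). STOML2, a protein of the inner mitochondrial membrane, had a median of 19.04 CPM per male cell (0 to 266) and 8.37 CPM per female cell (0 to 147.9), a ratio of 0.64 and -0.24 in cPS2. OXCT1, which opens the use of ketone bodies, had a median of 20.5 CPM per male cell (0 to 483) and 10.3 CPM per female cell (1.33 to 313). Its ratio was 1.38 pooled, 0.72 without cPS3, 2.59 in cPS3 and between -0.24 and 1.17 in the other 4 series. The transhydrogenase NNT (0.85) and the ribosomal protein genes MRPS27 (0.77) and MRPS30 (0.55) were higher in male cells, and ACO1, the cytosolic aconitase, was close to equal at 0.11.

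In the group of transport, glycan and lipid genes, 1 of 5 was at least 1.5-fold higher in male cells, PLIN2, the lipid droplet protein (0.71), and the group median was 0.47. TNPO1, a nuclear import receptor and the highest gene of the list, had a median of 982 CPM per male cell (208 to 2141) and 685 CPM per female cell (292 to 1555). It was detected in every cell of both sexes, and its ratio was 0.47 pooled and -0.03 in cPS1. B4GALT1, a galactosyltransferase (0.57), was above 0 in every series, and DYM stood at 0.39. SLC1A3, a glutamate transporter, had a median of 0 in both sexes (highest cells 270 CPM among male and 467 CPM among female cells), a ratio of -0.17 and series values from -1.67 in cPS2 to 3.52 in cPS3. FAM169A, which belongs to none of these groups, had a median of 14.9 CPM per male cell (0 to 1117) and 7.14 CPM per female cell (0 to 439), with a ratio of 0.70 and -0.45 in cPS.

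UBAP2 stood apart from the other listed genes, with values in the range of most W genes. It was at 2.36 CPM (2.19 to 2.53) pooled over male cells and 82.4 CPM (81.02 to 83.8) over female cells, a log2 ratio of -4.63. The median was 0.545 CPM per male cell (0 to 45.9) and 32.97 CPM per female cell (0 to 654), and 7.14% of male and 77.4% of female cells reached 10 CPM. Its ratio lay between -5.70 in cPS and -3.27 in cSR. The reference table has a gene UBAP2 on Z, and it also gives UBAP2 as an older name of the W gene UBAP2L2, so the name does not settle which copy the row counts. Of 20 genes that the table places on W, 16 had ratios from -7.28 to -2.34 and the other 4 from -0.42 to 0.40, with a median of -4.002. HINTW, which divided the cells, is 1 of the 16. SMAD7B, a W gene by the table, stood at 0.745 CPM in male and 19.3 CPM in female cells (-3.54), whereas SMAD7 on Z had 0.92. For NIPBL, not analysed under its own name, the table gives the synonym to a W gene whose row, LOC427025, had 6.03 CPM in male and 100.9 CPM in female cells (-3.86). A W gene named after UBE2R2 is also in the table, so reads of UBE2R2, SMAD7 and UBAP2 may have been divided between copies and their ratios are uncertain. W copies were sought by name or synonym only, and many of the W genes found carry only a LOC number. A W copy of any other listed gene could therefore have been missed, and its ratio may be uncertain in the same way.

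**Figure D4:**
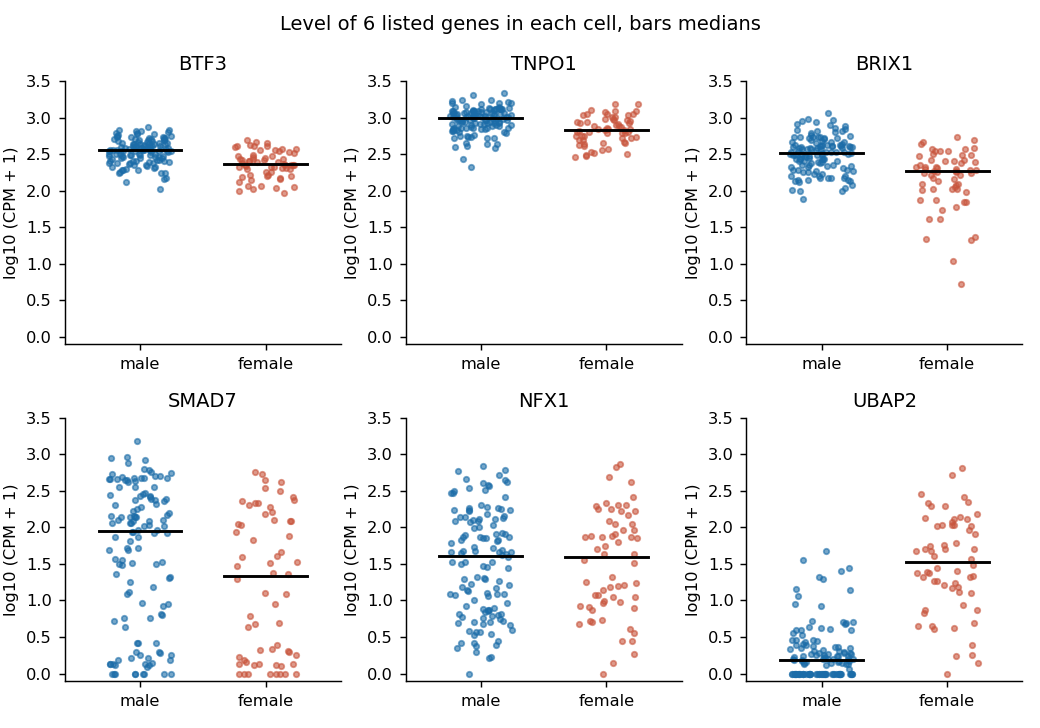
Level of 6 listed genes in each male (left) and female (right) cell as log10(CPM + 1), with bars at the medians. BTF3, TNPO1 and BRIX1 show shifted but overlapping cells, SMAD7 a wide spread in both sexes, NFX1 nearly equal medians of 39.6 CPM in male and 38.5 CPM in female cells, and UBAP2 mostly low values in male cells.

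The reference table went against the listing of NFX1 on Z, and the listing of CREB3 could not be checked. NFX1, a transcription factor gene, stood at 96.6 CPM (95.5 to 97.7) in male and 96.8 CPM (95.3 to 98.3) in female cells, a log2 ratio of -0.002. Its medians were 39.6 CPM per male cell (0 to 693) and 38.5 CPM per female cell (0 to 726), its series values ran from -0.74 to 0.23, and the reference table places it on chromosome 2. Such a ratio does not by itself set a gene apart from Z, since 49 of the 442 Z genes were also at or below 0. CREB3, a membrane-bound transcription factor gene, has no entry under that name in the table. It stood at 22.0 CPM in male and 5.87 CPM in female cells, a ratio of 1.74, and was above 0 in every series. The table placed the other 51 genes on Z, UBAP2 included. Over the 50 of them without UBAP2 the median was 0.67, with 29 at least 1.5-fold higher in male cells.

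More male than female cells had a listed gene at 10 CPM or more. The share of cells was higher in male cells for 47 of the 53 genes, with a median over genes of 69.8% of male and 59.7% of female cells. Among autosomal genes 44.2% had a higher share in male cells. After thinning each cell to 1000000 counts, which left out 2 male and 2 female cells, the share was higher in male cells for 46 genes, with medians of 69.4% of male and 60% of female cells. The cell values of male and female cells overlapped for all 53 genes.

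The ratio varied little with position along Z. When the 442 Z genes were put in their order along the chromosome and split into 10 groups of about equal size, the medians of the groups ran from 0.52 to 0.75. The listed genes are not spread evenly over Z: 41 of the 51 lie in the first 5 groups and 0 in the sixth and the seventh. Neighbours in this order had like values in some places and not in others, over 14 pairs of listed genes. RAD1, BRIX1 and DNAJC21 follow each other with 1.02, 0.88 and 0.74, and IL6ST and MAP3K1 with 0.86 and 0.88. By contrast, ATG10 (3.02) lies beside SSBP2 (0.30), PLK2 (-1.96) beside GPBP1 (0.13), and SLC1A3 (-0.17) beside SKP2 (0.41).

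**Figure D5:**
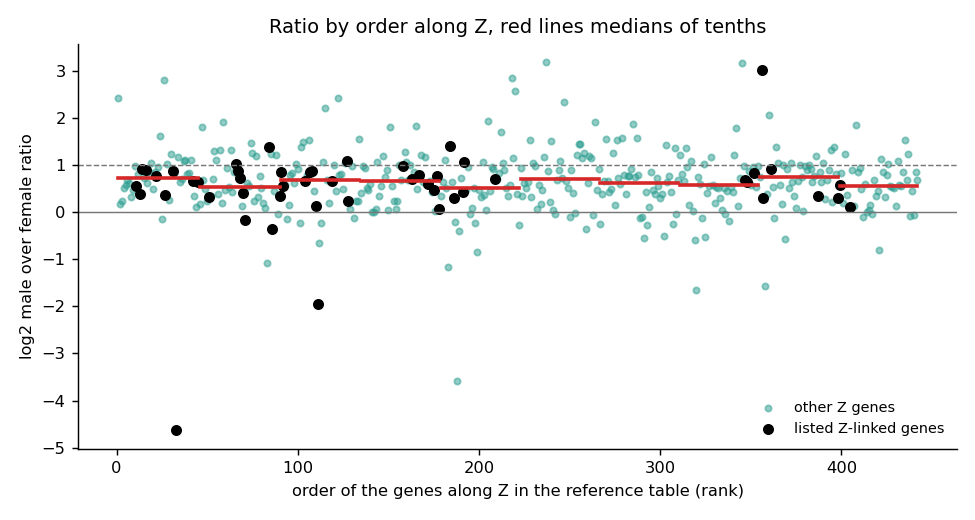
Male over female log2 ratio (vertical axis) of 442 Z genes by their order along Z in the reference table (horizontal axis, rank, not distance), with listed genes in black and red lines at the medians of the 10 groups of neighbouring genes. The red lines stay between 0.52 and 0.75, and UBAP2 at -4.63 is the lowest point.

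Genes whose products work with those of the listed genes but lie on autosomes were near equal levels. Of 54 such partners chosen by name, 39 were at the minimum level on an autosome, and they had a median of 0.04. At least 1.5-fold higher in male cells were 3 (STAT3, NPLOC4 and SMAD9), or 7.69%, against 10.9% of autosomal genes. At least 1.5-fold lower were 0, against 7.59%. Their ratios ran from -0.47 (SMARCA4) to 1.21 (STAT3). The cohesin subunits RAD21 (0.10) and STAG2 (-0.01), the SKP2 partner SKP1 (-0.13) and the BTF3 relative BTF3L4 (-0.06) are examples. CDK7 and HAUS6, partners that the table places on Z, had 0.50 and 0.92, beside 0.68 for CCNH and 0.78 for HAUS1. Within the augmin complex the autosomal genes HAUS2, HAUS3 and HAUS8 had 0.03, 0.33 and 0.51.

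Of 20 Z genes listed for a W copy or for their place in studies of dosage, 12 were at the minimum level and placed on Z. Their median was 0.62, with 6 at least 1.5-fold higher in male cells and 1 lower. HINT1, the Z relative of HINTW, stood at 231 CPM in male and 142.6 CPM in female cells (0.69), CHD1, a chromatin remodeller, at 274 CPM in male and 165.4 CPM in female cells (0.73), and ATP5A1, the alpha subunit of ATP synthase, at 1133 CPM in male and 581 CPM in female cells (0.96). The gene below 0 was DMRT3, at 4.42 CPM in male and 11.2 CPM in female cells, detected in 3.17% and 6.45% of them. DMRT1, the Z-linked gene of testis determination, had 0 counts in every cell of the study.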

How the data were processed

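The authors deposited unscaled expected counts for each gene in each cell. Per the submitters' processing notes the tools were CASAVA 1.8.2, Bowtie (version 0.12.9, and 0.12.8 for a single cell) and RSEM 1.2.3, and the build was galGal4. Their settings, the annotation and any use of strand are not stated in what was used here, so overlapping genes cannot be told apart. The labels mention no molecular identifiers, and PCR copies may be counted. The streak table was held in part: its last row was incomplete and left out, and only genes in both tables entered, CPM being relative to them. Genes in the surround table alone held 3.42% of its counts. A pooled CPM divides summed counts by summed totals. Log2 ratios add 1 CPM to each level, and low genes are thereby pulled to 0. No cell was removed for quality or as a doublet. Chromosomes and gene order came from a RefSeq table of another build (GRCg7b), matched by symbol, identifier or unambiguous synonym, and no coordinates are given. Described in full were 15 genes of a panel and the 4 highest and 4 lowest ratios at 20 CPM or more (the sets overlap), with other listed genes by role and TNPO1, BRIX1 and CREB3 added after their values were seen. The genes, lists and HINTW limits were chosen with earlier results of these data known. No test was made. Python 3.11.15, numpy 2.4.6, pandas 2.3.3, scipy 1.17.1 and matplotlib 3.10.9 were used, and R 4.3.3 with edgeR 4.0.16 and DESeq2 1.42.0 gave alternative scaling factors from rounded counts. The ratios were checked on simulated data.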

Additional observations from a re-analysis of the deposited data

Results flagged for a closer look

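In cPS1, 1 of the 10 female cells had 4.82% of its counts from Z genes, above the median of 3.84% in female cells of that series and far from its nearest neighbour, and below the lowest of the 18 male cells at 4.95%. This was the only extreme value among the 4 sets of values, each of 9 or 10 female cells, examined for a value far from the others, and the limit used is one that chance passes in about 1 in 20 groups. The cell had 1086087 expected counts, the lowest of the female cells of cPS1, whose median was 2947568. Whether depth takes part was not tested.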

How the results depend on the processing

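The median log2 ratio of the listed genes moved by less than the spread between title series under all 25 alternatives, from 0.55 (cells with odd title numbers) to 0.71 (without each gene's highest cell per group), including TMM factors (0.61), DESeq2 size factors (0.70), other HINTW limits (0.64 to 0.66), the streak series only (0.62) and, chosen after seeing the data, genes placed on Z without UBAP2 (0.67). The count at least 1.5-fold higher in male cells, 30, was 7 at 2-fold, 41 at a lower limit, and 23 to 33 otherwise. The count above 0 in every series was 16 to 22. The ratio of the summed medians stayed at or above 1.42. For other Z genes the median of 0.64 became 0.77 as the mean of the series, 0.77 without each gene's highest cell, 0.52 with a pseudocount of 10 CPM and 0.39 with no minimum level; the cause was not tested. Of 441 values of 21 named genes, 438 moved by less than the spread of that gene between series, a wide measure (JAK2 ran from 0.19 to 2.56, OXCT1 from 0.72 to 1.79). JAK2, RAD1, OXCT1, SMARCA2 and PPWD1 were under 2-fold in at least 1 alternative. Without cPS3, OXCT1 was 0.72. Leaving out a series put VCP, FAM169A, JAK2, STOML2, SMAD2, BTF3 and IL6ST under 1.5-fold in at least 1 case, the lowest being FAM169A at 0.26 without cPS2. RAD1, SMAD7 and KIF2A also fell under 1.5-fold in at least 1 alternative, with lowest values of 0.54, 0.56 and 0.55. MAP1B (-0.62 to 0.57), SLC1A3 (-0.72 to 0.91) and NFX1 (-0.15 to 0.18) changed sign. No setting shifted the median of all genes by over 0.1. The number of embryos behind the cells is not known, and the 6 listed genes under 20 CPM reached 10 CPM in at most 31.7% of male and 17.7% of female cells. No paired analysis was possible because title numbers only name cells and no test was made; ratios within each series, which hold both sexes, are in the report, and their mean gave a median of 0.65.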
